A study of Mus musculus with 21 samples.

Results

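Tnc, Spp1, Postn, Thbs1, Ccn1 and Ccn2 are 6 genes of matricellular proteins, and their RNA was followed in the left ventricle of 21 adult mice. Each gene was located by an mm39 window and strand. Where the table's 3′ UTR intervals of a window overlapped, the one with the most reads over all libraries was kept. The windows held 35 deposited intervals, of which 15 were kept, out of 121259 kept among 208307 in the whole table. A gene's value below is that of its most read kept interval. These lie on mm39 at chr4:63878022-63878669 (minus strand) for Tnc, chr5:104588485-104588916 (plus) for Spp1 and chr3:54297721-54298458 (plus) for Postn. For Thbs1 the interval is chr2:117955511-117957614 (plus), for Ccn1 chr3:145352731-145353420 (minus) and for Ccn2 chr10:24472974-24474581 (plus).

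Matricellular proteins are secreted into the extracellular matrix, where they bind cell surface receptors and growth factors rather than carry load. Tenascin-C (Tnc), osteopontin (Spp1) and periostin (Postn) are low in the healthy adult heart and are known to appear after injury, periostin mainly in activated fibroblasts and osteopontin in macrophages and other cells. Thrombospondin-1 (Thbs1) can activate latent TGF-beta. CCN1 (Ccn1, also Cyr61) and CCN2 (Ccn2, also connective tissue growth factor) are encoded by quickly induced genes with short-lived mRNAs that respond to YAP and TEAD, serum and stretch.

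The promoters show what lies just before the start of 4 of the genes, the 3 whose reads rose with the Lmna genotype in both arms and, beside them, Ccn1, whose reads passed the test in neither arm. They are RefSeq sequences of build GRCm38.p6, from 250 bases before to 50 after an annotated start. Of the 6 genes 4 matched, with 7 entries, 2 each for Tnc, Spp1 and Postn. The entry shown for each was picked after the matches were seen. Capitals mark matches to TATAAA (transcribed strand), ACCACA (a RUNX core, either strand) or GGAATG (a TEAD core, either strand).
Tnc, chr4:64046887-64047186, minus strand: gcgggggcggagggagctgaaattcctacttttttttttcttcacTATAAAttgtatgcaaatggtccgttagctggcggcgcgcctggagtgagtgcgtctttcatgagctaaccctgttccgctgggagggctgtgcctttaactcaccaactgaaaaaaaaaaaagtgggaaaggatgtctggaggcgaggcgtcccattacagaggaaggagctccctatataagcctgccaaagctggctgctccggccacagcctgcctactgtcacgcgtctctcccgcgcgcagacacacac
Spp1, chr5:104434861-104435160, plus strand: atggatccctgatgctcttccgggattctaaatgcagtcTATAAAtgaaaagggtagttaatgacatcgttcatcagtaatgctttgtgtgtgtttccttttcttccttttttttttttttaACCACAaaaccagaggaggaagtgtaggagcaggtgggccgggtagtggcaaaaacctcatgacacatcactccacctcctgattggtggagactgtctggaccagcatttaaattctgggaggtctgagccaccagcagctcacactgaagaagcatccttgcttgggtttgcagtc
Postn, chr3:54360857-54361156, plus strand: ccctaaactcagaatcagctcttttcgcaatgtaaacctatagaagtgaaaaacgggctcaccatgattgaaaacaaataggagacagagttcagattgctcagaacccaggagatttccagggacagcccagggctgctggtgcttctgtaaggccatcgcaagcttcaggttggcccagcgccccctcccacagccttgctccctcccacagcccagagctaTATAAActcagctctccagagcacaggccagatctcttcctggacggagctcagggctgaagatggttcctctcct
Ccn1, chr3:145649936-145650235, minus strand: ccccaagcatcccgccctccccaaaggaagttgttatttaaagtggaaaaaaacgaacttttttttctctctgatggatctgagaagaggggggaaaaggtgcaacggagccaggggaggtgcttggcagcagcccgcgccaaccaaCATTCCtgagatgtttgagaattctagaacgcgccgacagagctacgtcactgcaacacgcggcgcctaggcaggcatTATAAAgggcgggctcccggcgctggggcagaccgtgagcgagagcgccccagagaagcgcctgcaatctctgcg

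With the annotated start as position 0, TATAAA began at -26 in the Postn entry and at -25 in the Ccn1 entry, at -205 in the Tnc entry and at -211 in the Spp1 entry. The other Tnc entry, whose start lies elsewhere, held it at -126, and the other Spp1 and Postn entries held none. TATAAA occurred in 8.32% of all 32851 promoters of this length. Only Spp1 held ACCACA, at -128, a string found in 16.8% of promoters. The TEAD core stood only in Ccn1, on the strand opposite to the gene at -103, and 14.7% of all promoters hold it. None of the 7 entries held TGANTCA, the AP-1 core found in 7.81% of promoters on either strand, or a CArG box, found in 1.63%. Only TATAAA itself was searched, so TATA-like strings that differ from it by a base are not marked. The matches describe letters and not sites in use.

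The mice fell into 4 groups, named as the labels name the alleles: Lmna +/+ with Uprt (8 mice, 4 female and 4 male), Lmna F/F with Uprt (6 mice, 4 female and 2 male), Lmna +/+ without Uprt (3 males) and Lmna F/F without Uprt (4 mice, 2 of each sex). All of them, controls included, carried Myh6MCM Tg/0, a Cre fused to hormone receptor domains under the cardiomyocyte promoter Myh6, and all received tamoxifen on 4 days at 6 to 8 weeks of age and 4-thiouracil (10 mg per gram) 2 weeks after tamoxifen. The heart was taken 6 hours after 4-thiouracil. Uprt Tg/0 carries uracil phosphoribosyltransferase, which turns 4-thiouracil into a nucleotide that RNA polymerase can use, and after alkylation the incorporated base is read as C in place of T. The labels do not say which promoter drives Uprt, and the mice of a group were taken as separate animals, 1 library each. Libraries held 25975911 to 51007428 reads on kept intervals, of which 1125790 to 2421214 carried a T>C conversion. The T>C share of a whole library was 4.92% ± 0.45 (SD, n = 8) and 5.07% ± 0.27 (n = 6) with Uprt in Lmna +/+ and F/F, against 3.58% ± 0.43 (n = 3) and 3.61% ± 0.33 (n = 4) without. Lmna itself and the marker genes of cell types were not looked up, since the table's transcript IDs were paired with no symbols.

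In the mice with Uprt, Lmna F/F hearts had more reads of Tnc, Postn and Spp1 than Lmna +/+ hearts, and the reads of Thbs1, Ccn1 and Ccn2 did not pass the test. The 3 of 6 genes called, all higher, stand beside 2.45% of 31327 loci called in either direction and 2.19% called higher. The median log2 difference was 1.09 over the 6 genes and 0.01 over all loci tested. All 6 genes passed the filter on low counts. Levels are given as CPM, read counts scaled to a common library size with TMM factors, and are compared between mice and never between genes. In this bulk tissue, more cells of a type and more RNA per cell cannot be told apart.

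Tnc ranged over 0.138, 0.478 and 0.620 CPM (lowest, median, highest) in the 8 Lmna +/+ mice with Uprt, which is 5 to 23 reads a library. In the 6 Lmna F/F mice with Uprt it ranged over 4.45, 9.39 and 18.0 CPM, or 203 to 633 reads. Every F/F mouse lay above every +/+ mouse, as at 1.42% of loci with these groups. The log2 difference was 4.57 ± 0.57 (SE, adjusted p = 1.92e-05, edgeR), and it was 3.97 ± 0.41 in the females alone (adjusted p = 2.46e-04).

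Postn ranged over 6.09, 8.63 and 13.4 CPM in Lmna +/+ mice with Uprt and over 13.9, 33.5 and 46.5 CPM in Lmna F/F mice with Uprt. The groups met closely without overlap, with F/F replicate 6 at 13.9 CPM and +/+ replicate 2 at 13.4 CPM. The log2 difference was 1.82 ± 0.33 (adjusted p = 0.00126).

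Spp1 lay between 0.0730 and 0.248 CPM, or 2 to 9 reads, in 7 of the 8 Lmna +/+ mice with Uprt, and at 2.10 CPM (72 reads) in replicate 7. The Lmna F/F mice with Uprt ranged over 1.16, 2.03 and 4.00 CPM, so 3 of the 6 lay above every +/+ mouse. The log2 difference was 2.70 ± 0.71 (adjusted p = 0.0344). It was 4.22 ± 0.70 without that +/+ mouse (adjusted p = 7.86e-04). The call was lost in 10 of the 21 fits that left out 1 library, at adjusted p from 0.0579 to 0.103 without any other of the +/+ mice with Uprt or without F/F replicate 1, 2 or 5. In females alone it was 1.61 ± 0.77 (adjusted p = 0.478).

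**Figure D1:**
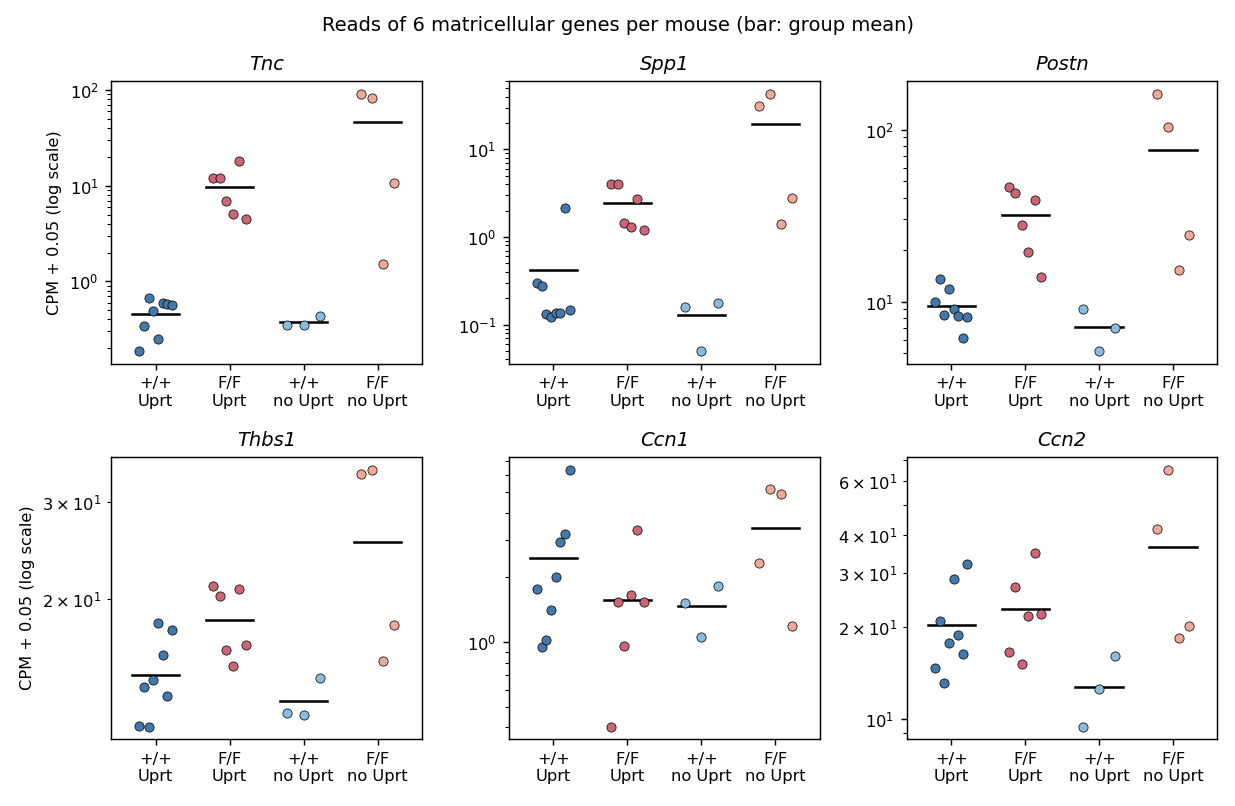
Reads of each gene in each mouse, as CPM plus 0.05 on a log axis, in the 4 groups, with a bar at the group mean and 1 panel per gene with an axis of its own. For Tnc and Postn all Lmna F/F points lie above all Lmna +/+ points, and in Lmna F/F without Uprt 2 mice (Tnc at 91.2 and 82.7 CPM) stand far above the other 2 (10.6 and 1.48 CPM).

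Thbs1 ranged over 11.7, 14.05 and 18.1 CPM in Lmna +/+ and 15.1, 18.4 and 21.1 CPM in Lmna F/F mice with Uprt, and 3 of the 6 F/F mice lay above all +/+ mice. Its log2 difference was 0.36 ± 0.15 (adjusted p = 0.261). Ccn2 ranged over 13.05, 18.2 and 32.1 CPM against 15.0, 21.9 and 34.7 CPM, with a log2 difference of 0.18 ± 0.25 (adjusted p = 0.825), so the groups lay over each other. Ccn1 ranged over 0.896, 1.84 and 6.31 CPM in Lmna +/+ and 0.353, 1.49 and 3.26 CPM in Lmna F/F. Its log2 difference was -0.66 ± 0.41 (adjusted p = 0.507), and -1.44 ± 0.38 without F/F replicate 5, the highest F/F mouse (adjusted p = 0.0457).

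Without Uprt, 5 of the 6 genes rose in Lmna F/F hearts, all but Ccn1, beside 5.17% of loci called and 3.46% called higher. The median log2 difference was 2.62 over the 6 genes and 0.03 over all loci. These are other animals than those with Uprt. The 3 controls were all male, so the sex term of the fit rests on the other 3 groups. The 4 F/F mice were uneven: replicates 1 and 2 stood far above replicates 3 and 4 for Tnc, Spp1, Postn, Thbs1 and Ccn2. Their TMM factors, 1.19 and 1.17, were also the highest of the 21 libraries (0.861 to 1.19), and the part of this in the results was not tested.

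Tnc was at 0.300, 0.302 and 0.385 CPM in the 3 Lmna +/+ mice without Uprt and at 91.2, 82.7, 1.48 and 10.6 CPM in Lmna F/F replicates 1 to 4. All 4 F/F mice lay above the controls, as at 8.08% of loci with these small groups. The log2 difference was 7.36 ± 0.98 (adjusted p = 1.44e-04), and 4.33 ± 0.57 without F/F replicates 1 and 2 (adjusted p = 2.87e-04), a fit chosen after the values were seen.

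Spp1 had 4, 0 and 6 reads in the 3 controls (at most 0.128 CPM) and 30.9, 43.0, 1.36 and 2.73 CPM in Lmna F/F replicates 1 to 4. The log2 difference of 7.65 ± 1.34 (adjusted p = 0.00102) thus rests on 10 control reads in all. Without F/F replicates 1 and 2 it was 4.48 ± 1.15 (adjusted p = 0.0897), and the call was lost.

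Postn was at 8.99, 5.12 and 6.95 CPM in the controls and at 161, 103, 15.2 and 24.4 CPM in Lmna F/F without Uprt. The groups did not overlap, and the log2 difference was 3.68 ± 0.54 (adjusted p = 2.06e-04). It was 1.73 ± 0.32 without F/F replicates 1 and 2 (adjusted p = 0.00774), the 2 mice highest in Postn. Leaving out the highest mice lowers the estimate, so its nearness to the 1.82 of the mice with Uprt is no separate evidence.

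Thbs1 was at 12.4, 12.3 and 14.4 CPM in the controls and at 33.7, 34.3, 15.4 and 17.9 CPM in Lmna F/F without Uprt. Its log2 difference was 1.05 ± 0.23 (adjusted p = 0.00742). The call was lost without F/F replicate 1 (0.87, adjusted p = 0.0736) and without replicates 1 and 2 together (0.46 ± 0.20, adjusted p = 0.501).

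Ccn2 was at 9.40, 12.5 and 16.0 CPM in the controls and at 41.8, 65.3, 18.3 and 20.2 CPM in Lmna F/F without Uprt, again with no overlap. The log2 difference was 1.56 ± 0.38 (adjusted p = 0.0150). It missed the threshold without F/F replicate 1 (adjusted p = 0.0798), without +/+ replicate 1 (0.0910) or +/+ replicate 2 (0.0608), and it was 0.70 ± 0.33 without F/F replicates 1 and 2 (adjusted p = 0.608). Ccn1 was at 1.47, 1.01 and 1.78 CPM against 2.28, 5.14, 4.82 and 1.13 CPM. There F/F replicate 3 was among the high mice and replicate 1 was not, and the log2 difference was 0.83 ± 0.62 (adjusted p = 0.560). A fit of these 7 libraries alone called 32 loci in place of 1621, and none of the 6 genes, with Tnc at 7.25 ± 1.42 (adjusted p = 0.0797). With its sex term and all-male controls, that fit compares the F/F males, replicates 1 and 4, with the controls, and the F/F females do not enter the difference.

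**Figure D2:**
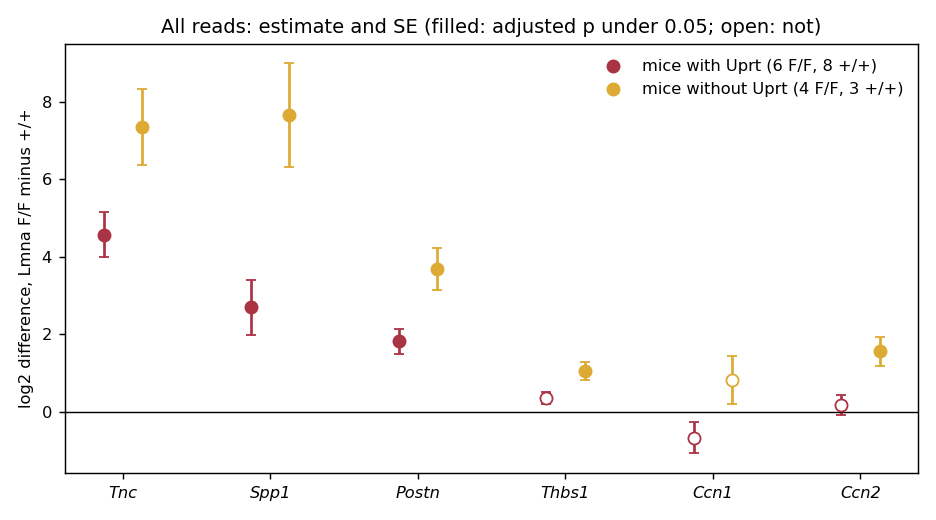
Log2 difference of Lmna F/F minus Lmna +/+ in reads of each gene, with its standard error, in mice with Uprt (6 against 8) and without (4 against 3); filled points passed an adjusted p of 0.05. Tnc, Spp1 and Postn are filled in both arms, Thbs1 and Ccn2 only without Uprt, and Ccn1 in neither.

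Across both arms, all 10 Lmna F/F mice lay above all 11 Lmna +/+ mice for Tnc and for Postn, that is for 2 of the 6 genes, as at 0.613% of loci. For Spp1 6 of the 10 F/F mice lay above every +/+ mouse, because of the +/+ mouse at 2.10 CPM. Thbs1 had 5 such mice, Ccn2 3 and Ccn1 0.

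The difference between the arms was tested as an interaction. It was called for 0 of the 6 genes and at 0 of 31327 loci (0%) by edgeR, with 2204 loci under an unadjusted p of 0.05 and 8 loci called by DESeq2. All 6 estimates were negative, that is the Lmna difference was smaller with Uprt: Spp1 -4.95 ± 1.55 (adjusted p = 0.575), Tnc -2.78 ± 1.08 (0.624), Postn -1.86 ± 0.59 (0.581), Ccn1 -1.49 ± 0.74 (0.709), Ccn2 -1.38 ± 0.44 (0.591) and Thbs1 -0.69 ± 0.27 (0.624). Without F/F replicates 1 and 2 of the arm lacking Uprt, the estimates were 0.25 for Tnc, 0.076 for Postn, -0.11 for Thbs1, -0.51 for Ccn2, -1.35 for Ccn1 and -1.77 for Spp1, none of them called. Leaving out these 2 mice was chosen after the values were seen.

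Within Lmna F/F, mice with Uprt against mice without gave 0 of 6 genes called, beside 0.0351% of loci (0.0223% higher and 0.0128% lower with Uprt). The estimates were -3.03 ± 0.71 for Spp1 (adjusted p = 0.164) and -2.24 ± 0.54 for Tnc (0.179). Both passed the threshold once F/F replicate 3 without Uprt was left out (Tnc 0.00414, Spp1 0.0200) or replicate 4 (Tnc 0.0353, Spp1 0.0369). Spp1 also passed without +/+ replicate 7 with Uprt (0.0467), and Postn without F/F replicate 3 (-1.53 ± 0.34, 0.0480). With replicates 1 and 2 left out in their place, the estimates were 0.13 for Spp1, 0.99 for Tnc and 0.74 for Postn, with the opposite sign. Replicates 1 and 2 were picked after they were seen to be the highest mice, and leaving them out moves the estimates in this direction. Within Lmna +/+, 0 of 6 genes and 0 of 31327 loci (0%) were called for Uprt by edgeR, against 2239 loci under an unadjusted p of 0.05 and 53 by DESeq2. These contrasts share groups with those above and are not separate evidence.

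The order of mice was partly common to the genes in Lmna F/F hearts. In Lmna F/F with Uprt, replicates 1, 2 and 5 were the 3 highest mice for each of Tnc, Spp1, Postn and Thbs1, and replicate 6 was the lowest for Tnc, Spp1 and Postn. Ccn1 departed from this: replicate 1, the highest for Spp1, Postn and Thbs1, was the lowest for Ccn1, at 0.353 CPM. Ccn2 departed too, with replicate 1 at rank 5 and replicate 6 at rank 3 of 6. Over these 6 mice Pearson r of log2 CPM was 0.84 to 0.93 among Tnc, Spp1, Postn and Thbs1, while Ccn2 had 0.48 with Tnc, 0.23 with Spp1 and 0.14 with Postn. Ccn1 and Ccn2 had 0.88 with each other, and Ccn1 had -0.21 to 0.18 with Tnc, Spp1, Postn and Thbs1. Replicates 1 and 5 are the 2 males of these 6 mice, and the part of sex in this order was not tested. In the 8 Lmna +/+ mice with Uprt, r was -0.48 for Tnc and Postn, -0.56 for Spp1 and Postn and 0.0042 for Tnc and Thbs1. Tnc had only 5 to 23 reads a library there, and Spp1 2 to 9 outside replicate 7 (72 reads), too few to show an order. Postn and Thbs1, at 197 to 486 and 378 to 626 reads, had an r of -0.074. In Lmna F/F without Uprt, replicate 3 was the lowest of 4 for 5 genes and the second highest for Ccn1.

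**Figure D3:**
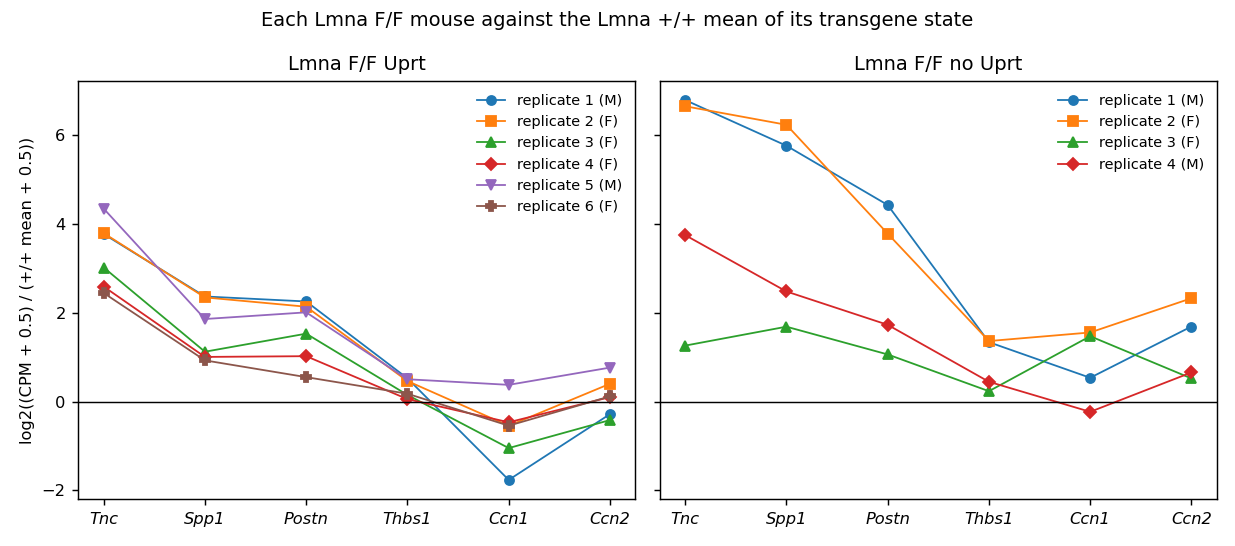
Each Lmna F/F mouse (a line) as log2 of its CPM plus 0.5 over the mean CPM plus 0.5 of the Lmna +/+ mice of the same arm, with Uprt on the left and without on the right, sex in brackets. With Uprt all lines are highest at Tnc (2.44 to 4.34) and near 0 at Thbs1 (0.054 to 0.52), and without Uprt replicates 1 and 2 (Tnc 6.79 and 6.65) run far above replicate 3 (1.26).

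Reads with a T>C conversion were fewer, and 3 of the 6 genes (Postn, Thbs1, Ccn2) had enough in the mice with Uprt to be tested. Of these, Postn rose in Lmna F/F, beside 0.490% of 10405 loci called (0.413% higher and 0.0769% lower). Postn had 3 to 27 converted reads a mouse (median 7.5) in Lmna +/+ and 26 to 78 (median 55.0) in Lmna F/F, and only +/+ replicate 2 reached the F/F range. The log2 difference was 2.21 ± 0.37 (adjusted p = 0.00570), beside the 1.82 for all reads. Thbs1 had 5 to 22 converted reads in +/+ and 10 to 40 in F/F, a log2 difference of 1.15 ± 0.41 (adjusted p = 0.469). Ccn2 had 161 to 396 and 227 to 404, a log2 difference of -0.02 ± 0.21 (adjusted p = 0.992). Tnc had no converted read in 6 of the 8 +/+ mice and 4 to 22 in the F/F mice, and Spp1 had none in 7 of 8 and 0 to 6 in F/F. Ccn1 had 3 to 56 and 0 to 17. Without Uprt 4 genes were tested and 0 were called, beside 0.0506% of 7908 loci. With its sex term, this fit compares the F/F males, replicates 1 and 4, with the +/+ mice, which were all male. The log2 differences were 7.12 ± 1.77 for Tnc (adjusted p = 0.343), 4.42 ± 0.98 for Postn (0.295), 0.96 ± 0.61 for Thbs1 (0.744) and 0.27 ± 0.28 for Ccn2 (0.874). Tnc passed the low-count filter only through F/F replicates 1, 2 and 4, where it was high (88, 156 and 26 converted reads). Its value rests on 1 converted read in the 3 Lmna +/+ mice. DESeq2 called Postn (adjusted p = 2.53e-04). With no low-count filter Tnc (1.91e-13) and Postn (2.00e-13) passed, in a fit that called 246 loci in place of 4.

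The T>C share, converted reads over all reads of a gene, did not pass the test for Uprt against none at any of the 6 genes, while 55.2% of 13574 loci passed it and 55.0% were higher with Uprt. The median log2 difference in the ratio of converted to unconverted reads was 0.07 over the 6 genes and 1.16 over all loci. The estimates were 1.21 ± 0.71 for Ccn1 (adjusted p = 0.154), 0.62 ± 0.31 for Ccn2 (0.0875), 0.10 ± 0.28 for Postn (0.773), 0.04 ± 0.54 for Tnc (0.964), -0.09 ± 0.31 for Thbs1 (0.826) and -0.60 ± 0.67 for Spp1 (0.468). Spp1 passed the low-count filter only through F/F replicates 1, 2 and 4 without Uprt (65, 113 and 12 converted reads). Every other library had 0 to 6, and the median over the 6 genes includes this estimate. Ccn2 passed in the Lmna F/F mice alone (1.20 ± 0.40, adjusted p = 0.0229) and with a quasi-binomial model (0.94 ± 0.27, 0.00660), but in the Lmna +/+ mice alone it was -0.06 ± 0.42 (0.921). The +/+ mice without Uprt were all male, so with a sex term that last value compares males only.

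For Postn the share was 2.96% ± 1.60 (SD, n = 8) in Lmna +/+ and 4.10% ± 0.99 (n = 6) in Lmna F/F with Uprt, and 2.62% ± 1.27 (n = 3) and 4.28% ± 1.47 (n = 4) without. For Thbs1 it was 2.50% ± 1.33, 3.87% ± 1.58, 3.80% ± 1.76 and 3.56% ± 0.83 in the same order of groups. Tnc had 4.50% ± 2.88 in F/F with Uprt and 3.87% ± 1.32 in F/F without, and Spp1 3.98% ± 4.17 (2.51% ± 2.35 without replicate 6) and 5.66% ± 3.12, so for these genes mice with and without Uprt lay over each other. The Lmna +/+ mice had too few reads of Tnc and Spp1 for a share: summed over mice, 6 of 109 Tnc reads with Uprt (5.50%, Wilson 95% interval 2.55% to 11.5%) and 1 of 41 without were converted. Of those 6, 5 came from replicate 2, and without it 1 of 100 was converted (1.0%, interval 0.177% to 5.45%). For Spp1 it was 4 of 102 reads with Uprt, all 4 in replicate 7 (0 of 30 in the other 7 mice), and 0 of 10 without, which allows a share of up to 30.0%.

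Ccn2 stood apart, with a high share in every group. It was 44.6% ± 8.4 in Lmna +/+ and 37.4% ± 3.6 in Lmna F/F with Uprt, and 46.7% ± 4.7 and 22.5% (range 10.4% to 33.0%, n = 4) without. Summed over the mice of a group, it lay above 99.3%, 98.9%, 99.5% and 96.7% of the loci with at least 100 reads in those groups, whose median share was 5.95% and 5.93% with Uprt and 2.41% and 2.51% without. Ccn1 also ran high, at 17.6% ± 11.9 and 22.5% ± 27.1 with Uprt and 15.0% ± 1.7 and 6.17% ± 1.91 without, above 94.0%, 88.3%, 95.1% and 81.1% of loci with its summed reads. The 22.5% rests on replicate 1, at 75% from 12 reads: the other 5 mice averaged 12.0% ± 9.4, and the share of the summed reads was 14.7%. For both genes the share was above the median locus also in mice that lack Uprt. Converted Ccn2 reads carried 1.10, 1.11, 1.04 and 1.06 conversions each in the 4 groups. The medians over loci with at least 20 converted reads were 1.05, 1.06, 1.0 and 1.0. Those loci were not matched to Ccn2 in share, so the values do not show whether its number is high or low. The table does not give the position of a conversion within an interval, so whether the Ccn2 conversions fell on 1 base or many was not tested. In Postn, 0.976, 0.845, 0.909 and 0.856 conversions were listed per converted read, fewer than 1, so some reads counted as converted have no conversion listed within the interval.

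**Figure D4:**
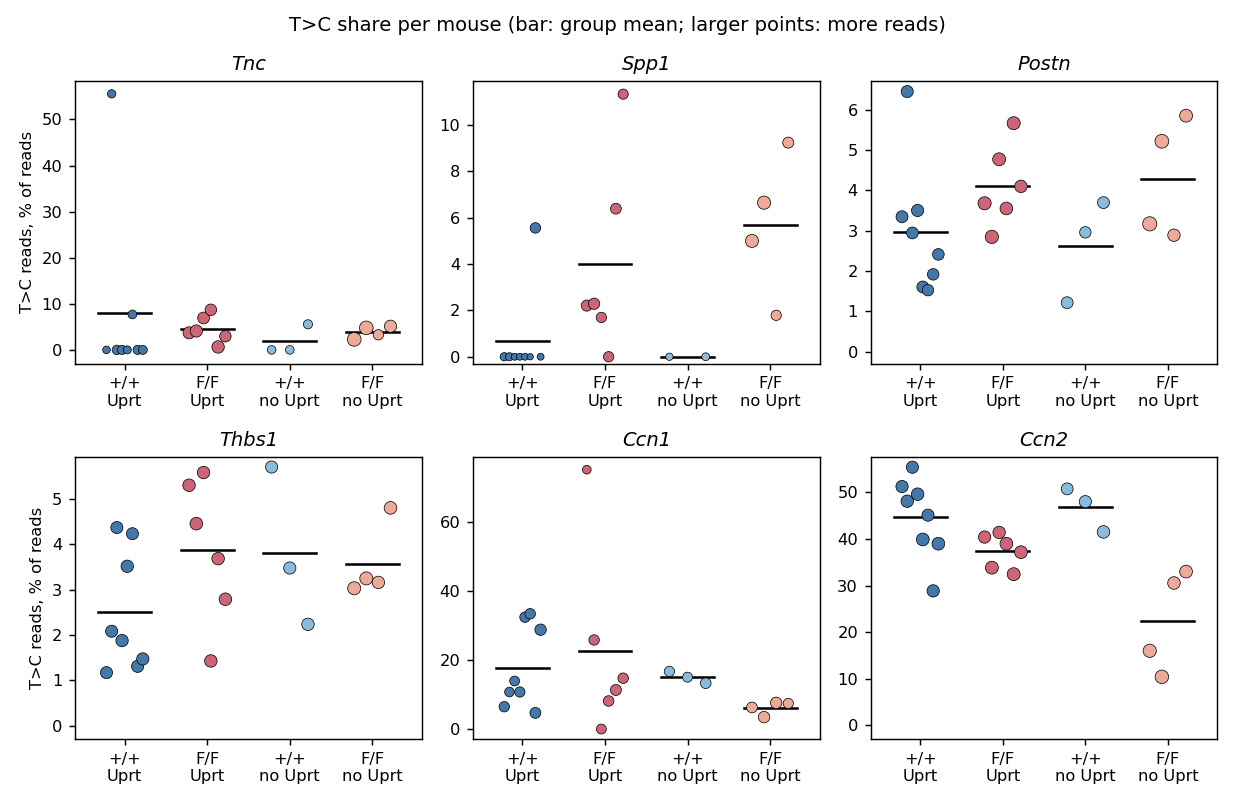
T>C share of each gene in each mouse, as the percentage of its reads, in the 4 groups, with a bar at the group mean and larger points for more reads. Ccn2 lies between 10.4% and 55.4% in all 21 mice, and in Lmna F/F without Uprt Ccn1 and Ccn2 lie below every Lmna +/+ mouse without Uprt; the highest points of Tnc (55.6%) and Ccn1 (75%) come from 9 and 12 reads.

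Between Lmna genotypes, the share was called for 0 of the 3 genes tested with Uprt, beside 0.0384% of 10405 loci (0.0192% in each direction, with 394 under an unadjusted p of 0.05 and 2 called by the quasi-binomial model). The log2 differences were 0.49 ± 0.31 for Postn, 0.75 ± 0.37 for Thbs1 and -0.42 ± 0.26 for Ccn2, each at an adjusted p of 1.00. Without Uprt, a test added after the values were seen called 0 of 4 genes and 0 of 7908 loci (0%), with 227 under an unadjusted p of 0.05 and 0 by the quasi-binomial model, and Ccn2 was at -1.52 ± 0.67 (adjusted p = 1.00). The +/+ mice here were all male, so with a sex term the value sets them against the F/F males alone, replicates 1 and 4. The Ccn2 value was -0.83 without F/F replicate 1 and -2.20 without F/F replicate 4, each with 1 F/F male left.

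In those mice without Uprt, the Ccn2 share was 50.7%, 48.0% and 41.5% in the 3 Lmna +/+ mice and 16.0%, 10.4%, 30.5% and 33.0% in Lmna F/F replicates 1 to 4, with no overlap. The Ccn1 share was 16.7%, 15.0% and 13.3% against 6.25%, 3.45%, 7.58% and 7.41%, again with no overlap. Of 19739 loci with at least 10 reads in each of these libraries, 2.02% had F/F shares wholly below and 2.29% wholly above. The converted part of Ccn2 was 4.77, 6.00 and 6.63 CPM in Lmna +/+ and 6.69, 6.80, 5.59 and 6.65 CPM in Lmna F/F. The unconverted part was 4.63, 6.50 and 9.35 CPM against 35.1, 58.5, 12.7 and 13.5 CPM. So the mice of this arm that were high in Ccn2 reads differed from the others in unconverted reads, while converted reads lay between 4.77 and 6.80 CPM in all 7. With Uprt the converted part of Ccn2 spread wider, from 4.69 to 12.5 CPM in Lmna +/+ and from 6.22 to 11.3 CPM in Lmna F/F.

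The other kept intervals held few reads except in Postn, where 5 more intervals upstream had 78 to 4028 reads over all libraries. The largest, at chr3:54285905-54290898, averaged 1.75 ± 0.57 CPM in Lmna +/+ and 5.22 ± 2.30 CPM in Lmna F/F with Uprt, a log2 difference of 1.57 ± 0.40 (adjusted p = 0.0280). Without Uprt it averaged 1.21 ± 0.45 and 12.9 ± 13.6 CPM, with 3.57 ± 0.65 (adjusted p = 0.00132). It thus moved as the main Postn interval did, though both come from the same RNA and are not replicates. Its share of converted reads over all 21 libraries was 1.54%. With Uprt the log2 differences of intervals 3, 4 and 5, numbered by reads, were also positive but not called (adjusted p = 0.175, 0.283 and 0.624). Without Uprt interval 3 rose, by 3.44 ± 0.67 (adjusted p = 0.00260), and intervals 4 and 5 were not called. Interval 4 (chr3:54292629-54292706) stood apart in its share: 78 of its 321 reads were converted (24.3%), with 27 of 32 in Lmna +/+ and 32 of 86 in Lmna F/F with Uprt, and 2 of 15 and 17 of 188 without. The second interval of Tnc had 15 reads, that of Spp1 3, and the 2 of Thbs1 20 and 1.

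The loci whose levels were most like each gene's over the 21 libraries, by Pearson r of log2 CPM among 17155 loci of at least 1 CPM, are given by position since the table pairs them with no symbol. They were chr3:95463497-95463714 for Tnc (r = 0.978), chr11:94842446-94843868 for Spp1 (0.946), chr6:122505391-122506249 for Postn (0.978), chr14:69930569-69933283 for Thbs1 (0.949), chr17:87740840-87741454 for Ccn1 (0.936) and chr16:62748557-62749709 for Ccn2 (0.895). These values describe 21 libraries that fall into groups, and each is the highest of many. The locus most like Tnc averaged 13.6 and 40.0 CPM in Lmna +/+ and F/F with Uprt and 12.4 and 64.5 CPM without.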

How the data were processed

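RNA of the left-ventricular free wall (1.5 µg) was alkylated in 12 mM iodoacetamide, made into strand-specific QuantSeq 3′ libraries and read as 100 single-end bases, per the labels' protocols. Per the file headers, the authors deposited whole counts for every 3′ UTR interval of each library: all reads, converted (T>C) reads, multimapped reads, sequenced bases at T positions and conversions among them. Header names follow SlamDunk, and the submitters' processing notes name mm39. How reads were aligned, which annotation was used, whether sequence variants were masked and how many conversions make a read converted: not given in the sources used. Deposited CPM and conversion rates were left aside.

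Of overlapping intervals on 1 strand the most read was kept, over the whole table. All reads were tested with edgeR 4.0.16 quasi-likelihood tests (R 4.3.3), after TMM scaling and filterByExpr at a minimum count of 10, in 1 fit over 21 libraries with a mean per group and a sex term. For T>C reads the fits held the 14 mice with Uprt and the 7 without separately, by Lmna and sex. The Lmna +/+ mice without Uprt were all male. With a sex term, fits of the 7 mice without Uprt, or of Lmna +/+ mice alone, thus compared males only. The share was tested on converted and unconverted reads with an effect per library. P-values were Benjamini-Hochberg adjusted over all loci tested, with 0.05 as the threshold, and the value after a log2 difference is its standard error. Wilson intervals (95%) and limits from 3 counts cover counting error only. Alternatives used DESeq2 1.42.0 and a quasi-binomial model. The edgeR tests were tested on simulated data. Replicate numbers follow accession order and only name mice; no 2 libraries held identical counts. P-values set a difference against the spread between mice, which for all reads was estimated over all 21 libraries and not within the 2 groups compared.

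The named genes are the 6, found by window, and 1 most like locus each. The genes, lists and tests were chosen with earlier results of these data known. The supplied gene table matched 0 of 61901 transcript IDs, so a list of other matricellular genes and receptors, the cell type markers and Lmna were not run.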

Additional observations from a re-analysis of the deposited data

Results flagged for a closer look

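In 7 of 36 sets of values (a gene's CPM or T>C share in a group of 4 to 8 mice), 1 mouse stood far from the others by Dixon's criterion at the 95% level; chance alone would mark about 1 set in 20 of measured values, a rate that does not hold for shares of a few reads, such as those of Spp1 and Tnc in Lmna +/+. Spp1 reads were at 2.10 CPM in Lmna +/+ replicate 7 with Uprt, against 0.248 CPM in the next mouse, and the same mouse had a Spp1 T>C share of 5.56% (4 of 72 reads) where the other 7 had no converted Spp1 read among 2 to 9 reads each, too few to show such a share. Ccn1 reads were at 6.31 CPM in Lmna +/+ replicate 8 with Uprt, against 3.12 CPM in the next. The Tnc T>C share was 55.6% in Lmna +/+ replicate 2 with Uprt, from 5 of 9 reads (Wilson 95% interval 26.7% to 81.1%), and the Postn share of that mouse was 6.44% (27 of 419 reads), against 3.50% in the next. The Ccn1 T>C share was 75% in Lmna F/F replicate 1 with Uprt, from 9 of 12 reads (46.8% to 91.1%), against 25.8% in the next. The Thbs1 share was 4.80% in Lmna F/F replicate 4 without Uprt, against 3.25% in the next.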

How the results depend on the processing

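Of 1186 values of the genes under alternatives, 1105 kept their direction and side of the threshold, 23 lost a call, 23 gained one and 35 changed sign. The Lmna differences of Tnc and Postn with Uprt kept their calls in all 30 alternatives each, and DESeq2 gave no adjusted p for Spp1. Calls lost or gained by single libraries stand beside their results. Scaling by library size alone moved the median of all loci from 0.01 to 0.17 with Uprt and from 0.03 to 0.17 without. With Uprt 1286 loci were then higher and 27 lower in place of 686 and 83, without Uprt 1456 and 265 in place of 1083 and 538, and for Uprt in Lmna F/F 4 and 6 in place of 7 and 4. No paired analysis was possible because the labels give no replicate numbers that pair mice. Low reads limit Tnc, Spp1 and Ccn1 in Lmna +/+. The cause of the changes below was not tested.

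Loci called for Lmna with Uprt (769) were 1247 with DESeq2, 1313 by library size alone, 1591 with no low-count filter, 1174 with these groups alone, 347 in females alone and 1259 without Lmna F/F replicates 1 and 2 of the arm lacking Uprt, and 508 (without F/F replicate 1) to 925 when 1 library was left out. Without Uprt (1621) they were 32 with these groups alone, 121 without those 2 mice and 460 to 2356 with 1 library left out; the lower counts were 460 and 960 without F/F replicates 1 and 2, and 755, 799 and 876 without +/+ replicates 1, 2 and 3. The interaction (0) had 8 with DESeq2, 329 with no filter and 0 to 4 with 1 library left out. Uprt in Lmna +/+ (0) had 53 with DESeq2, 246 with no filter, 1 with no sex term, 6 without the 2 mice and 0 to 5 with 1 left out. Uprt in Lmna F/F (11) had 112, 597, 7 with intervals of a transcript summed, 3 without the 2 mice and 4 to 93, the 93 without F/F replicate 3 and 62 without F/F replicate 4 of the arm lacking Uprt. T>C reads with Uprt (51) had 96 with DESeq2 and 171 with no filter; without Uprt (4) they had 84, 246, 7 with no sex term and 3 to 14 with 1 left out. The share for Uprt (7494) had 3379 in Lmna +/+ alone. The share for Lmna had, with Uprt (4), 2 by the quasi-binomial model, 46 with a filter of 1 T>C read and 2 to 5 with 1 left out, and without Uprt (0) 32 with that filter, 2 with no sex term and 0 to 5. With no low-count filter the interaction was called for Tnc, Spp1, Postn and Ccn2, Uprt in Lmna F/F for all but Thbs1, and Uprt in Lmna +/+ for Spp1 and Ccn2.

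Signs changed without the 2 mice for the interaction (Tnc 0.25, Postn 0.076) and for Uprt in Lmna F/F (Tnc 0.99, Spp1 0.13, Postn 0.74, Thbs1 0.15, Ccn2 0.25), none of them called. That fit was chosen after the values were seen. Ccn2 T>C reads with Uprt were 0.13 scaled by total reads, a scaling that moved the median of all loci from -0.01 to 0.12. The share for Uprt was -0.22 for Tnc, -0.020 for Postn and 0.14 for Thbs1 in Lmna F/F alone, -0.013 for Postn and 0.050 for Thbs1 by the quasi-binomial model, and -0.061 for Ccn2 in Lmna +/+ alone; the share for Lmna without Uprt was -0.042 for Thbs1 with no sex term. With 1 library left out, Ccn2 reads with Uprt ran from -0.022 to 0.35 and its T>C reads from -0.13 to 0.16. The share for Uprt ran from -0.27 to 0.58 for Tnc, -0.033 to 0.27 for Postn and -0.18 to 0.080 for Thbs1, and that for Lmna without Uprt from -0.34 to 1.71 for Tnc and -0.26 to 0.46 for Thbs1.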

Other observations

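Thbs1 and Ccn2 kept a common order among the control hearts with Uprt: over these 8 Lmna +/+ mice, log2 CPM of the pair had a Pearson r of 0.93, and over the 6 Lmna F/F mice with Uprt 0.38. The 0.93 is the highest of all pairs of the 6 genes in those 8 mice, the next being 0.59 for Thbs1 and Ccn1. Lmna +/+ replicate 8 was the highest of 8 for both Ccn1 (6.31 CPM) and Ccn2 (32.1 CPM), and replicate 3 the lowest for both Thbs1 (11.7 CPM) and Ccn2 (13.05 CPM). These are descriptions of few libraries, and Tnc and Postn, which ranked together in Lmna F/F with Uprt (r = 0.90, n = 6), had an r of -0.48 over the 8 controls. Tnc had only 5 to 23 reads a library in those controls.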
